A study of Mus musculus with 15 samples.

Results

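The complement system genes are 32 genes of the blood's complement cascade and its receptors, out of 56980 gene IDs in a liver RNA-seq table. They were chosen by gene symbol and not by a cut-off on measured values, but with earlier results of these data known. All 32 symbols matched a gene ID, and all 32 passed the filter on low counts, among 14627 genes tested. The livers came from wild-type (WT) male C57BL/6J mice, an inbred laboratory strain, that were 15 weeks old when they began 1 of 3 diets and stayed on it for 9 months. The control diet held 10% fat, the high-fat diet 60% fat and the ketogenic diet 89.9% fat, and the series asks how a ketogenic diet changes expression in the liver. Each diet had 5 libraries, numbered as replicates 1 to 5. Control replicate 1 was excluded by the submitters as contaminated and enters no comparison, so the groups held 4, 5 and 5 libraries. Whether every library stands for a separate mouse is not said in the labels, and p-values therefore measure only how far these libraries spread. Whole liver was sequenced, so fewer cells of a type and less RNA per cell cannot be told apart in any value below.

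Complement is a set of plasma proteins that mark and puncture foreign or damaged cells. The classical route starts when C1q, with the proteases C1r and C1s, binds antibody, and the lectin route starts when mannose-binding lectins, collectins or ficolins bind sugars together with MASP proteases. Both cleave C4 and C2 to form an enzyme that cleaves C3, while the alternative route builds a C3-cleaving enzyme from C3 itself with factor B and factor D. C3 cleavage leads to C5 cleavage (the mouse gene is Hc), and C5b with C6, C7, C8 and C9 then forms a pore in the target membrane. Hepatocytes secrete most of these proteins, whereas C1q comes mainly from macrophages and factor D mainly from fat cells.

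Promoter sequence is shown for 4 members described below and for 1 relative: C9, lower on both fat-rich diets; Mbl2, lower on the ketogenic diet, beside its relative Mbl1, which passed the test in no comparison; Cfd, higher on the ketogenic diet; and Colec11, higher on the high-fat diet. Each run is the 250 bases before the gene's annotated start, 5′ to 3′ on the gene's own strand, from RefSeq on build GRCm38.p6, an earlier build than that of the counts. The RefSeq table held 23 of the 32 members. In C9 the capitals mark a C/EBP motif (TTGCNNAA) 132 to 125 bases before the start and an HNF4 motif (CAAAGTCCA, with up to 1 mismatch) 66 to 58 bases before it. In Colec11 they mark a STAT motif (TTCNNNGAA) 250 to 242 bases before the start. In Mbl1 and Mbl2 they mark the longest run of bases that both windows share, and Cfd held none of these motifs.
C9 (chr15:6445096-6445345, plus strand): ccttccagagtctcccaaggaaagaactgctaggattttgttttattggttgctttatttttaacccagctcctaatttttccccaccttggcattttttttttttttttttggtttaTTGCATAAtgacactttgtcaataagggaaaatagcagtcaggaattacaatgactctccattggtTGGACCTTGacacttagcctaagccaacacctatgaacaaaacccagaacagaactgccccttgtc
Mbl2 (chr19:30232678-30232927, plus strand): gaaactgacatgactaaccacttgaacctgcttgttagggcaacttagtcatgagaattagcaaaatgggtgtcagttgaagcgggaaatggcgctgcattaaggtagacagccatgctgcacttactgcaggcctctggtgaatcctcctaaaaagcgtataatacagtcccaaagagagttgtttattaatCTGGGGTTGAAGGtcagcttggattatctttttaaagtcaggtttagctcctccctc
Mbl1 (chr14:41151206-41151455, plus strand): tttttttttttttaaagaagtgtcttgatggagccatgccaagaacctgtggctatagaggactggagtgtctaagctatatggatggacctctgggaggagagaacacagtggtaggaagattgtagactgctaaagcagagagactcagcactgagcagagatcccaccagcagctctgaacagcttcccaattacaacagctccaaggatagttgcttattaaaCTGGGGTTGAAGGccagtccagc
Cfd (chr10:79890603-79890852, plus strand): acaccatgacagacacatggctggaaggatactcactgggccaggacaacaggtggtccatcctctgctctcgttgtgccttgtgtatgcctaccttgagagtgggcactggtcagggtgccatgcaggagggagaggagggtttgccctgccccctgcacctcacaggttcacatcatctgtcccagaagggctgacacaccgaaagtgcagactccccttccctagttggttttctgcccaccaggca
Colec11 (chr12:28623331-28623580, minus strand): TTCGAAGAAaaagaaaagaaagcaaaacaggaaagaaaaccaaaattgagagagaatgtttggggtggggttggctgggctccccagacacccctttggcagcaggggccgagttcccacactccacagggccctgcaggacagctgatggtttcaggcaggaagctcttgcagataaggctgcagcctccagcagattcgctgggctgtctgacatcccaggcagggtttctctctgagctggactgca
C/EBP and HNF4 are transcription factors of hepatocytes, and STAT factors act in the acute phase response. Read on both strands, the C/EBP letters occurred in 3 of the 23 member windows (C1s1, C9 and C3) and in 9.55% of 27025 mouse promoter windows of the same length. The HNF4 letters occurred in C4bp and C9 and in 7.09% of all windows. The STAT letters occurred in C8a, Masp2 and Colec11 and in 7.18% of all windows, and the form with 1 base fewer in its middle (TTCNNGAA) in C1qc and in 7.1%. An HNF1 motif with up to 2 mismatches occurred in C4bp and Hc and in 1.25% of all windows, and a loose NF-kB motif (GGG and CC, 5 bases apart) occurred in 8 members, Cfd among them, and in 45.4%. A match describes these letters and is not a shown binding site.

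Mbl1 and Mbl2, which encode the mannose-binding lectins A and C of mouse plasma, share a 13-base run 23 to 11 bases before the start of Mbl1 and 57 to 45 bases before that of Mbl2. Across the 253 pairs of member windows the longest shared run was 6 to 13 bases, with a median of 8. Only 1 other pair, C9 with Mbl1, had a run of 13 bases, and that run consisted of 1 base repeated. Their annotated transcripts share no 50-base stretch, so reads of that length tell the genes apart.

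Total counts per library ran from 16329425 to 25349148. Levels are CPM, a gene's count per 1000000 counts of its library, with libraries scaled by TMM, which corrects for RNA composition, and 3 comparisons were made with edgeR's quasi-likelihood test in 1 fit. An adjusted p below 0.05 (Benjamini-Hochberg over all 14627 genes) is called a rise or a fall. Hepatocyte markers were the dominant transcripts: Alb (albumin) lay between 49437 and 122668 CPM in the 14 libraries, and 9 hepatocyte markers together took 128974 to 162736 CPM in controls. Those 9 summed to 88666 to 123582 CPM after the high-fat diet, where 1 of them fell, and to 69786 to 118387 CPM after the ketogenic diet, where 2 fell. Among all genes 5.01% and 4.6% fell on these diets. The high-fat count was 2 without control replicate 2 or high-fat replicate 1, and the ketogenic count was 1 without control replicate 4 and 4 without ketogenic replicate 3. Ketogenic replicate 5 stood apart from the other ketogenic libraries. It had the lowest hepatocyte marker sum of all 14 libraries and the highest sum of 11 monocyte-derived or lipid-associated macrophage markers, 851 CPM against 123 to 242 CPM in the other ketogenic livers. Control replicate 2 stood apart from the other controls: 12 pancreatic acinar markers summed to 1696 CPM, against 25.9 to 171 CPM in control replicates 3 to 5, and 8 neutrophil markers to 90.1 CPM, against 3.03 to 4.71 CPM. Without it, 7 members passed on the high-fat and 5 on the ketogenic diet, as with it, but they were not all the same members. On the high-fat diet C6 was lost and Masp1 gained, and on the ketogenic diet C2 was lost and Serping1 gained. Members' calls that either library decides are given with and without it.

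Members made up 1.368% to 2.236% of the counts of a library, and C3 alone gave 35.0% to 47.3% of the members' counts. Per kilobase of annotated exon, the control mean was highest for C3 at 1512 ± 436 CPM per kb (SD, n = 4), followed by Serping1 at 403 ± 67.8, Cfi at 370.2 ± 31.4, C4b at 344 ± 104 and Mbl2 at 332 ± 53.5. C3 was above each of these in every control library, while the ranges of the other 4 overlapped. The lowest were the anaphylatoxin receptors, C3ar1 at 0.930 and C5ar1 at 0.530 CPM per kb.

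After the high-fat diet 7 of the 32 members passed the test, where 12% of all genes tested did. Colec11 and Cd59a rose, a share beside a background of 6.95% rises, and C1ra, C2, C4a, C6 and C9 fell, beside a background of 5.01% falls. After the ketogenic diet 5 of 32 passed, beside 12.1% of all genes. Cfd rose, beside 7.47% of all genes, and C2, C9, Cfb and Mbl2 fell, beside 4.6%. The high-fat count was 4 without control replicate 4. The ketogenic count was 3 without control replicate 3 or 4 and 8 without ketogenic replicate 3. The members' median log2 fold change was -0.18 after the high-fat and -0.28 after the ketogenic diet, where the median over all genes was 0.01 and 0.03. Negative fold changes were found for 20 of 32 members on the high-fat and 23 of 32 on the ketogenic diet, beside 49.0% and 46.5% of all genes. With library totals in place of TMM, which shifts the median gene up by 0.13 and 0.18 on the log2 scale, 18 of 32 were negative on each diet, and 75.6% and 83.2% of all called genes were rises in place of 58.1% and 61.9%. Both comparisons use the same 4 control libraries, so their values are set side by side and are not independent of each other.

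**Figure D1:**
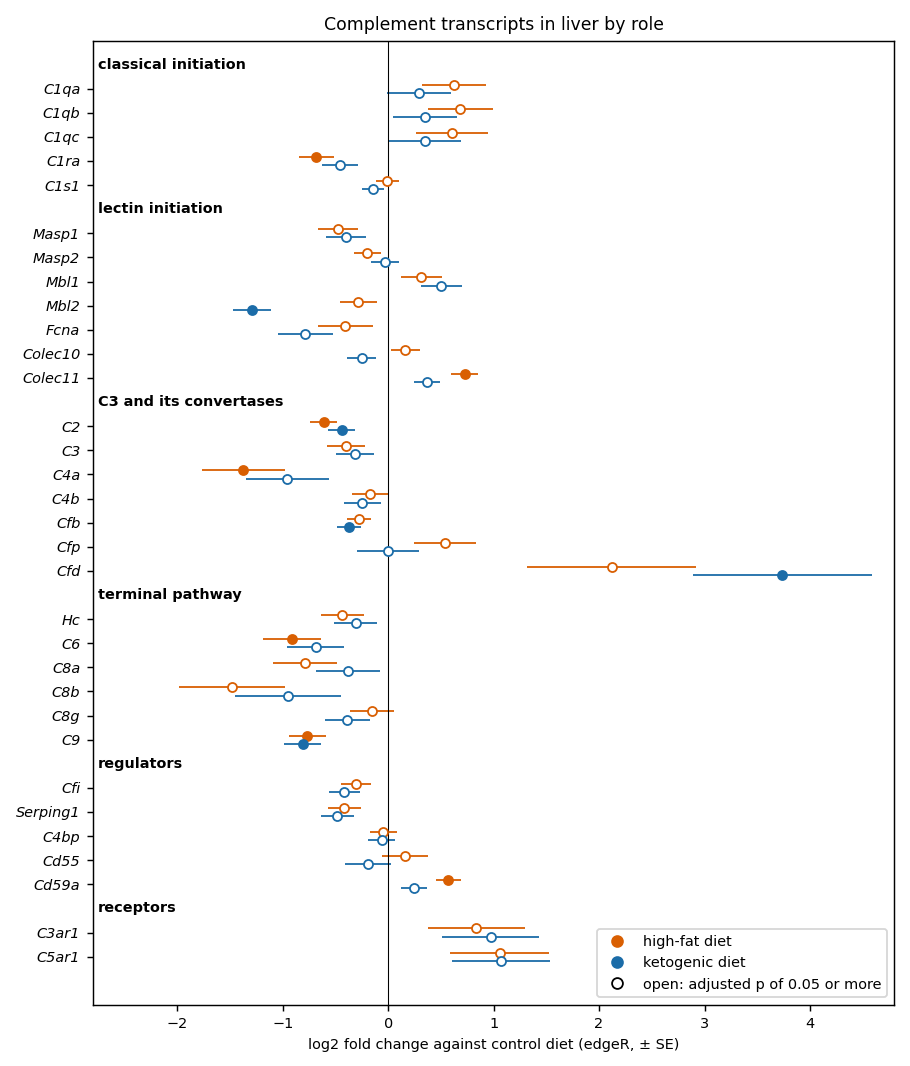
Log2 fold change against the control diet (x axis, edgeR, bars ± SE) for the 32 members grouped by role (y axis), for the high-fat and the ketogenic diet; filled points passed an adjusted p of 0.05 and open points did not. All 6 terminal pathway genes lie left of 0 on both diets, Mbl2 lies far left on the ketogenic diet at -1.29, and Cfd lies far right at 3.73.

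The terminal pathway forms the membrane pore. Its 6 members all had lower mean levels on both fat-rich diets, with a median log2 fold change of -0.78 after the high-fat and -0.54 after the ketogenic diet. All 6 fold changes also stayed negative with library totals in place of TMM and without ketogenic replicate 5, where the ketogenic median was -0.45. C6 and C9 fell after the high-fat diet (2 of 6, beside 5.01% of all genes) and C9 fell after the ketogenic diet (1 of 6, beside 4.6%), while the other 4 passed on neither diet. C7, which completes the pathway and is not among the 32 members, was scarce, at 2.04 to 4.07 CPM in controls, 0.597 to 3.93 CPM after the high-fat and 1.53 to 3.84 CPM after the ketogenic diet. The diets overlapped, and its changes of -0.71 ± 0.42 and -0.57 ± 0.42 did not pass (adjusted p = 0.294 and 0.396). The summed level of the 6 was 3443 to 5162 CPM in controls, 1919 to 3369.8 CPM after the high-fat diet and 1823 to 3599.6 CPM after the ketogenic diet. Hepatocyte marker sums, given above, were lower in the same libraries, and their part in these values was not tested.

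C9 encodes the protein that polymerises into the pore, and its promoter window is the one printed first above. In the order of replicate numbers, C9 stood at 646, 612, 817 and 530.4 CPM in the controls. High-fat livers held 466, 345, 354, 424 and 323 CPM, and ketogenic livers 251, 343, 463, 406 and 393 CPM. Every library of both fat-rich diets was below the lowest control, and the fat-rich diets overlapped each other. C9 fell by 0.77 ± 0.18 (SE) on the log2 scale after the high-fat diet, 1.7-fold, with an adjusted p of 0.0107 (edgeR). On the ketogenic diet it fell by 0.81 ± 0.18, 1.76-fold, with an adjusted p of 0.00687, and by 0.85 without ketogenic replicate 5. Both calls held under every alternative setting tried and when any 1 library was left out. The highest edgeR adjusted p with 1 library left out was 0.0493 on the high-fat and 0.0348 on the ketogenic diet. Between the ketogenic and the high-fat diet C9 differed by -0.04 ± 0.17 on the log2 scale (adjusted p = 0.979).

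C6 is the first protein to bind C5b. Its gene is also on the list of Kupffer cell markers read below, whose sums leave it out as a member. The part of those markers in the C6 values was not tested. Control levels of C6 were 412, 406, 421 and 345 CPM, against 272, 163, 248, 267 and 100.3 CPM after the high-fat diet. No high-fat library reached the lowest control, and replicates 2 and 5 were the lowest. The drop was 1.88-fold (log2 fold change -0.91 ± 0.27 SE, edgeR adjusted p = 0.0405). It passed narrowly: the adjusted p was between 0.0573 and 0.103 when any 1 of control replicates 2 to 5 or high-fat replicates 2, 3 or 5 was left out, 0.0509 with library totals, 0.0928 with no filter on low counts, 0.0727 with library number as a covariate and 0.0603 with control replicate 1 put back. Ketogenic livers held 178, 209.9, 284, 378 and 179 CPM, so that replicate 4 lay among the controls, and the change of -0.69 ± 0.27 did not pass (adjusted p = 0.114). Without ketogenic replicate 4 the change was -0.90 and passed (edgeR adjusted p = 0.0383).

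C8a and C8b encode the alpha and beta chains of C8, the complex that inserts into the membrane. C8b had control levels of 465, 429, 464 and 349.6 CPM, and 324, 82.2, 111, 177 and 70.2 CPM after the high-fat diet. The groups did not overlap, and high-fat replicate 1 lay close to the controls while the other 4 were far below. The fold change of -1.48 ± 0.50 had an adjusted p of 0.0734 in edgeR, 0.0145 without high-fat replicate 1, 0.0296 in DESeq2 and 0.0493 in a fit of those 2 diets alone. Ketogenic livers held 122, 278, 319, 327 and 58.9 CPM of C8b, all below the controls and with a wide spread (log2 fold change -0.95 ± 0.50, adjusted p = 0.237). C8a showed -0.79 ± 0.30 after the high-fat diet (adjusted p = 0.103 in edgeR, 0.0477 in DESeq2 and 0.0419 in the 2-diet fit) and -0.38 ± 0.30 after the ketogenic diet (adjusted p = 0.441), with ketogenic replicate 5 the lowest of all 14 libraries at 303 CPM. C8g, the gamma chain, is a lipocalin that is joined to the alpha chain. Its ranges overlapped in all 3 diets, with 314 to 403 CPM in controls, 233 to 422 CPM after the high-fat and 192 to 396 CPM after the ketogenic diet.

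Hc encodes C5, the source of the pore's first fragment and of the anaphylatoxin C5a. Its control levels were 1000.02, 1287, 1864 and 1046 CPM, with replicate 4 far above the rest. High-fat livers held 1094, 873, 1085, 1006 and 744 CPM and ketogenic livers 1178, 1198, 943, 1229 and 697 CPM, so the groups overlapped. The changes of -0.44 ± 0.21 and -0.31 ± 0.21 did not pass the test (adjusted p = 0.182 and 0.344).

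**Figure D2:**
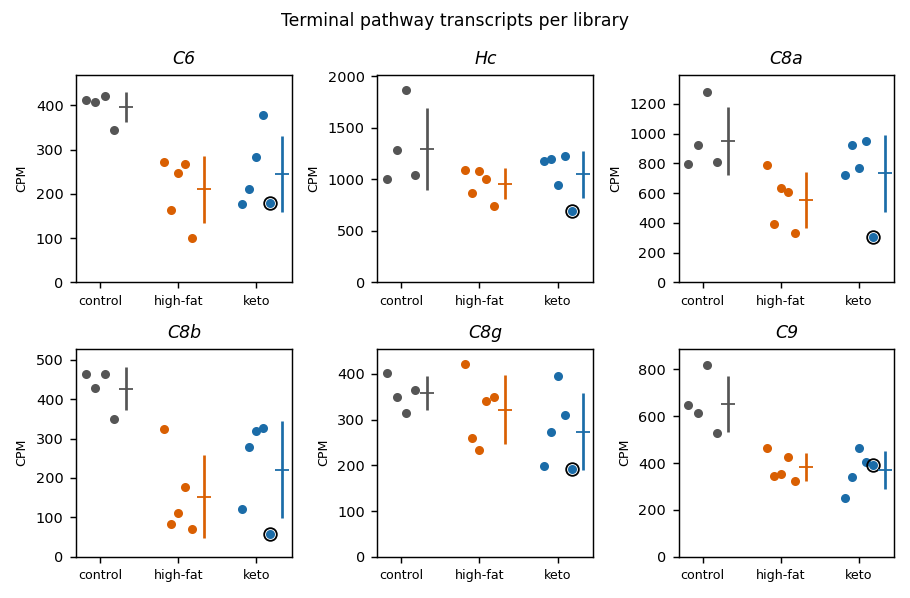
Level in CPM (y axis, from 0) of the 6 terminal pathway genes in each library (points) by diet (x axis), with mean ± SD beside them; ketogenic replicate 5 is ringed in black. For C9 all 10 libraries of the fat-rich diets lie below the lowest control at 530.4 CPM, whereas for Hc and C8g the diets overlap.

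At the centre of the cascade, C3 showed no change that passed the test. The controls held 5411, 7765, 10787 and 7140.1 CPM of C3, and replicate 4 was again the highest. High-fat livers had 6349, 5614, 5993, 6105 and 5402 CPM and ketogenic livers 7514, 7302, 5262, 5782 and 5461 CPM, both within or just below the control range. The log2 fold changes were -0.40 ± 0.18 (adjusted p = 0.165) and -0.31 ± 0.18 (adjusted p = 0.278).

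C2, the protease subunit of the classical and lectin C3 convertase, fell on both diets. Control levels were 104, 114, 112 and 92.2 CPM. After the high-fat diet they were 87.7, 54.8, 63.5, 72.5 and 66.9 CPM, and after the ketogenic diet 75.4, 87.3, 80.6, 81.3 and 64.2 CPM. All 10 libraries of the fat-rich diets lay below every control. The high-fat change was -0.61 ± 0.13 (adjusted p = 0.00674, 1.53-fold) and held under every alternative tried. The ketogenic change of -0.44 ± 0.13 (adjusted p = 0.0361) was lost, with adjusted p from 0.0522 to 0.107, when control replicate 2, 3 or 4 or ketogenic replicate 1, 4 or 5 was left out. It was also lost with library totals (-0.28, adjusted p = 0.103), no filter (0.0569), library number as a covariate (0.0570) and control replicate 1 put back (0.0949). Annotated exons of C2 share 42.77% of their bases with Gm20547, a gene model on the same strand, and how reads in such overlaps were counted was not stated.

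Mice carry a close pair of C4 genes. C4b encodes the functional C4 and C4a encodes the sex-limited protein. C4b gave 1456, 1990.1, 2781 and 1612 CPM in controls, 1977, 1532, 1837, 1709 and 1635 CPM after the high-fat and 1822, 1855, 1665, 1593 and 1341 CPM after the ketogenic diet. These ranges overlapped, and the changes of -0.17 ± 0.17 and -0.24 ± 0.17 did not pass (adjusted p = 0.557 and 0.381).

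C4a held 148, 176, 213 and 163 CPM in controls and 86.8, 32.0, 89.5, 98.1 and 30.6 CPM after the high-fat diet. No high-fat library came near the controls, and replicates 2 and 5, the lowest for C6 as well, were the lowest here. C4a fell by 1.38 ± 0.39 on the log2 scale, 2.59-fold (edgeR adjusted p = 0.0369), and the call was lost, with adjusted p from 0.0507 to 0.104, without control replicate 3, 4 or 5 or high-fat replicate 2, 3 or 5. The adjusted p was 0.110 with no filter, 0.0683 with library number as a covariate and 0.0777 with control replicate 1 put back. Ketogenic livers held 64.3, 88.4, 124, 134 and 40.0 CPM, all below the controls as well (log2 fold change -0.96 ± 0.39, adjusted p = 0.129). With the replicate number as a term the ketogenic change was -1.11 and passed (edgeR adjusted p = 0.0354). The genes share 30.56% of the 50-base stretches of C4a, so part of each count may belong to the other. Per kilobase, C4a stood at 0.0703 to 0.0930 of C4b in controls, at 0.0172 to 0.0527 after the high-fat diet and at 0.0274 to 0.0770 after the ketogenic diet, a ratio described after its values were seen. C4a and C6 are on a list of male-biased mouse liver genes. Of the 18 others on it, 3 fell and 0 rose on each of the fat-rich diets, beside 5.01% and 4.6% falls among all genes, with median log2 fold changes of -1.29 and -0.87. The high-fat count was 8 without high-fat replicate 1. The ketogenic count was 1 without control replicate 3 or 4 or ketogenic replicate 1 or 2, and 5 without ketogenic replicate 4. Of 13 female-biased mouse liver genes tested, 8 rose after the high-fat diet (beside 6.95% of all genes) and 4 after the ketogenic diet (beside 7.47%), none fell, and the median log2 fold changes were 1.84 and 1.62. The part of either list in the C4a and C6 values was not tested.

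Cfb encodes factor B, the protease of the alternative convertase. Its control levels were 156, 168, 199.6 and 175 CPM, against 144, 146, 136, 134 and 116 CPM after the ketogenic diet and 170.2, 122, 131, 150.2 and 147 CPM after the high-fat diet. The ketogenic libraries were all below the controls, by a small margin. The ketogenic fall of 0.37 ± 0.12 on the log2 scale (adjusted p = 0.0478) passed narrowly: leaving out any 1 library other than control replicate 2 gave adjusted p from 0.0564 to 0.166. The call was also lost with library totals (-0.20, adjusted p = 0.186), no filter (0.109), library number as a covariate (0.0699), a fit of those 2 diets alone (0.0741) and control replicate 1 put back (0.0624). After the high-fat diet the change was -0.28 ± 0.12 (adjusted p = 0.130). Cfb shares 79.5% of its exon bases with Gm20547.

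Cfd encodes factor D, also called adipsin, the protease that cleaves factor B. The controls held 4.02, 9.37, 4.40 and 1.54 CPM. Ketogenic livers held 25.4, 62.7, 168, 58.7 and 8.97 CPM, so 4 of 5 were above every control and replicate 5 lay within the control range. Cfd rose 13.3-fold on the ketogenic diet (log2 fold change 3.73 ± 0.85, edgeR adjusted p = 0.0139), and by 4.0 on the log2 scale without replicate 5 (adjusted p = 0.00533). The call held when any 1 library was left out, with log2 fold changes from 3.00 to 4.28 and edgeR adjusted p up to 0.0486.

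High-fat livers held 19.5, 11.6, 22.6, 41.6 and 10.1 CPM of Cfd, all above the highest control. The change of 2.12 ± 0.80 had an adjusted p of 0.109 in edgeR, 0.0335 in DESeq2 and 0.0492 in a fit of those 2 diets alone. The difference between the ketogenic and the high-fat diet, 1.61 ± 0.70, did not pass (adjusted p = 0.535). Because factor D is a product of fat cells, other fat cell markers were read in the same libraries. Adipoq, Lep, Plin1 and Retn, which encode adiponectin, leptin, perilipin 1 and resistin, were at most 3.26 CPM in every library. None of the 3 that passed the low-count filter, Adipoq, Lep and Plin1, was called. Their highest values were in control replicate 3 for Adipoq, Plin1 and Retn and in high-fat replicate 3 for Lep. Car3, a carbonic anhydrase of fat cells that hepatocytes also make, held 2085 to 2582 CPM in controls and 3212 to 4529 CPM after the high-fat diet, without overlap (log2 fold change 0.80 ± 0.27, adjusted p = 0.0663). On the ketogenic diet Car3 rose (log2 fold change 1.10 ± 0.27, adjusted p = 0.0149, lost without control replicate 3). That makes 1 of the 4 tested fat cell markers called, beside 12.1% of all genes. Ketogenic replicates 1 to 4 held 4013 to 7446 CPM of Car3, with replicate 3 the highest, as for Cfd, and replicate 5 was the lowest of all 14 libraries at 2015 CPM. The part of these markers in the Cfd values was not tested.

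**Figure D3:**
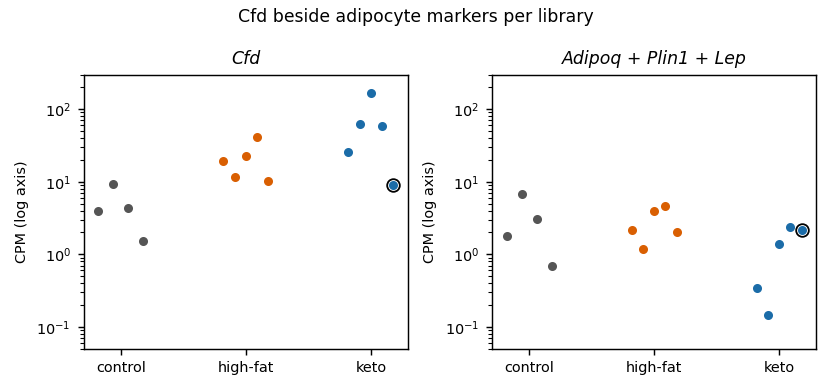
Level in CPM (y axis, logarithmic) of Cfd (left) and of Adipoq, Plin1 and Lep summed (right) in each library by diet, with ketogenic replicate 5 ringed. Cfd lies between 1.54 and 9.37 CPM in controls and reaches 168 CPM on the ketogenic diet, while the 3 summed fat cell markers are at similar or lower levels on the fat-rich diets. Car3, the fat cell marker that rose on the ketogenic diet, is not drawn.

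Properdin, encoded by Cfp, stabilises the alternative convertase and is made by myeloid cells. It lay at 19.4 to 29.0 CPM in controls and 17.9 to 41.6 CPM after the high-fat diet (log2 fold change 0.54 ± 0.29, adjusted p = 0.254). Ketogenic replicates 1 to 4 held 14.3 to 20.8 CPM and replicate 5 held 41.4 CPM. Cfp was thus high in the same library as the C1q genes, whose values follow.

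In the lectin route Mbl2 was the member that passed the test against both other diets. Mbl2 held 434, 311, 318 and 385 CPM in controls and 337, 274, 235, 304 and 337 CPM after the high-fat diet, with overlap. Ketogenic livers held 96.1, 150.1, 189, 139 and 166 CPM, and each of them was below every library of both other diets. Mbl2 fell 2.45-fold against control (log2 fold change -1.29 ± 0.18, edgeR adjusted p = 0.000231), and this call held under every alternative tried, with log2 fold changes from -1.39 to -1.17 when 1 library was left out.

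Against the high-fat diet Mbl2 fell 2.01-fold (log2 fold change -1.01 ± 0.17, adjusted p = 0.0322). It was the only 1 of 32 members to pass in that comparison, where 0.0615% of all genes did, 8 genes falling (0.0547%) and 1 rising (0.00684%). That call was lost without high-fat replicate 1, 2, 4 or 5 or ketogenic replicate 1, 2 or 4 (adjusted p from 0.0600 to 0.127), with library number as a covariate (0.0918) and in a fit of those 2 diets alone (0.0884), and had an adjusted p of 0.00653 without ketogenic replicate 5. The high-fat change against control was -0.28 ± 0.17 (adjusted p = 0.313).

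Mbl1 passed the test in no comparison of the 14 libraries in the fit used. Its levels were 136, 114, 133 and 102 CPM in controls, 199, 121, 116, 159.6 and 159 CPM after the high-fat diet and 148, 222, 206, 173 and 112 CPM after the ketogenic diet. Ketogenic replicates 1 to 4 were above all controls and replicate 5 was among them. The ketogenic change of 0.50 ± 0.20 had an adjusted p of 0.107, 0.0310 without replicate 5 and 0.0125 with library totals. Per kilobase, Mbl1 was at 0.184 to 0.290 of the level of Mbl2 in controls, 0.307 to 0.409 after the high-fat diet and 0.47 to 1.07 after the ketogenic diet. The 3 ranges did not overlap, but this ratio was chosen after its values were seen and is given with no test. These are the genes whose promoter windows above share the 13-base run.

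Colec11 encodes collectin-11, a sugar-binding starter of the lectin route. It held 30.3, 30.5, 26.6 and 32.0 CPM in controls and 42.9, 42.7, 46.8, 58.7 and 55.3 CPM after the high-fat diet. Every high-fat library was above every control, and Colec11 rose 1.65-fold (log2 fold change 0.72 ± 0.12, adjusted p = 0.00176), a call that held under every alternative tried. Ketogenic livers held 31.2, 38.4, 43.8, 37.9 and 41.5 CPM, where replicate 1 lay among the controls (0.37 ± 0.12, adjusted p = 0.0643). This change of Colec11 was called with library totals (0.0125), with the replicate number as a term (0.0464), without ketogenic replicate 1 (0.0365) and with control replicate 1 put back (0.0309). Colec10, its partner in heteromers, changed by 0.16 ± 0.14 and -0.25 ± 0.14 (adjusted p = 0.484 and 0.257). Stellate cells are known to express both collectin genes in mouse liver. Of 8 other stellate cell and fibroblast markers 3 rose after the high-fat diet, beside 6.95% of all genes. Their sum was 315 to 347 CPM in controls and 421 to 573 CPM after that diet. After the ketogenic diet 3 rose, beside 7.47% of all genes, with sums of 356 to 745 CPM. The high-fat count was 1 without any 1 of control replicates 3 to 5 or high-fat replicates 2 to 5. The ketogenic count was 0 without control replicate 3, 4 or 5 and 1 without ketogenic replicate 1 or 5. Their part in the Colec11 values was not tested.

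The other lectin route members passed in no comparison of the 14 libraries in the fit used. Fcna, mouse ficolin A, a macrophage product, lay at 38.3 to 57.7 CPM in controls, 28.9 to 50.3 CPM after the high-fat and 13.9 to 38.7 CPM after the ketogenic diet. Its ketogenic change was -0.79 ± 0.26 (adjusted p = 0.0625 in edgeR and 0.0240 in DESeq2). In edgeR the adjusted p was 0.0327 without ketogenic replicate 3 and 0.0482 with control replicate 1 put back. The protease genes Masp1 and Masp2 changed by -0.47 ± 0.19 and -0.20 ± 0.13 after the high-fat diet and by -0.40 ± 0.19 and -0.03 ± 0.13 after the ketogenic diet. Without control replicate 2 the high-fat change of Masp1 was -0.62 and passed (edgeR adjusted p = 0.0433). Masp2 shares 54.94% of its exon bases with Tardbp on the other strand. The libraries keep strand, but whether the counting used it was not stated.

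**Figure D4:**
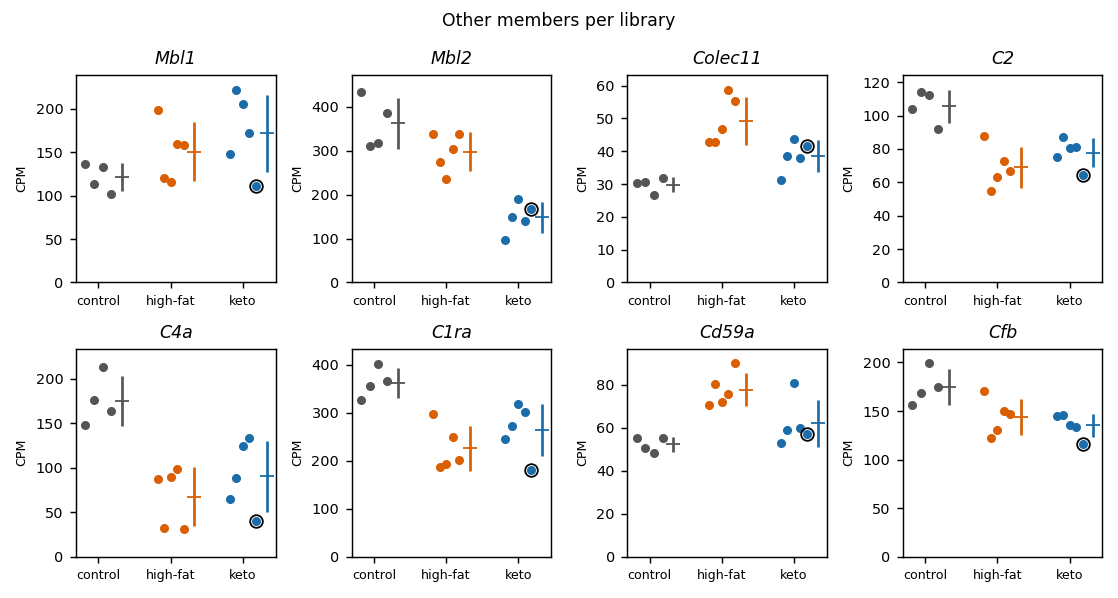
Level in CPM (y axis, from 0) of 8 further members in each library (points) by diet (x axis), with mean ± SD beside them and ketogenic replicate 5 ringed. The 5 ketogenic libraries of Mbl2 (96.1 to 189 CPM) lie below all others, and the 5 high-fat libraries of Colec11 (42.7 to 58.7 CPM) lie above all controls.

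The classical route starts with C1q, 3 chains encoded by neighbouring genes and made by macrophages. C1qa held 57.3, 31.7, 36.2 and 40.7 CPM in controls, 51.7, 68.0, 68.1, 53.1 and 78.1 CPM after the high-fat diet and 33.4, 42.5, 40.9, 34.0 and 103 CPM after the ketogenic diet. C1qb held 61.7, 38.5, 43.8 and 42.3 CPM, then 66.0, 73.5, 69.5, 69.0 and 96.1 CPM, and then 39.3, 48.0, 44.3, 39.8 and 124 CPM. C1qc held 51.4, 36.5, 36.9 and 43.3 CPM, then 45.6, 70.3, 72.6, 53.8 and 77.0 CPM, and then 34.2, 41.4, 38.4, 34.0 and 119.6 CPM. In each gene control replicate 2 was the highest control, and ketogenic replicate 5 was above all 13 other libraries while ketogenic replicates 1 to 4 lay within or near the control range. The high-fat libraries were all above the controls for C1qb and overlapped them for C1qa and C1qc. The 3 chains kept close to one ratio: per kilobase C1qb was 0.976 to 1.24 of C1qa over the 14 libraries.

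None of the C1q changes passed the test in the 14 libraries. After the high-fat diet they were 0.62 ± 0.30, 0.68 ± 0.31 and 0.60 ± 0.34 for C1qa, C1qb and C1qc (adjusted p = 0.200, 0.164 and 0.275). Without control replicate 2 they were 0.82, 0.85 and 0.71 and did not pass either. In a fit of the high-fat and control libraries alone, which leaves the ketogenic spread out, the adjusted p were 0.0280, 0.00945 and 0.0230. The ketogenic changes of 0.29 ± 0.30, 0.35 ± 0.30 and 0.35 ± 0.34 turned to -0.15, -0.14 and -0.20 without ketogenic replicate 5, and passed in neither fit. Without that library all 3 were lower in ketogenic than in high-fat livers, by -0.76, -0.81 and -0.79 on the log2 scale (adjusted p = 0.0261, 0.00952 and 0.0136), where the full set gave -0.33, -0.34 and -0.25 (adjusted p of at least 0.824).

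Markers of macrophages were read in the same libraries. The summed C1q chains were 107 to 170.4 CPM in controls, 163 to 251 CPM after the high-fat diet, 107 to 132 CPM in ketogenic replicates 1 to 4 and 347 CPM in replicate 5. Over the same libraries 9 Kupffer cell markers summed to 437 to 536 CPM, 445 to 667 CPM, 336 to 423 CPM and 791 CPM. Kupffer cell markers in ketogenic replicates 1 to 4 thus lay below every control, where the C1q sums lay within the control range. The C1q sum was 0.236 to 0.318 of the Kupffer cell sum in controls, 0.317 to 0.395 after the high-fat diet and 0.312 to 0.438 after the ketogenic diet, a ratio chosen after the values were seen and given with no test. None of these 9 passed after the high-fat diet (beside 12% of all genes) and 2 fell after the ketogenic diet (beside 4.6%). The 11 monocyte-derived or lipid-associated macrophage markers summed to 106 to 182 CPM in controls and 234 to 368 CPM after the high-fat diet. Of them 2 rose after the high-fat diet (beside 6.95% of all genes) and 4 after the ketogenic diet (beside 7.47%). Without control replicate 3, 4 or 5 these counts were 1 and 2, and the count of falling Kupffer cell markers was 0 without control replicate 4 or 5. The part of either list in the C1q values was not tested.

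**Figure D5:**
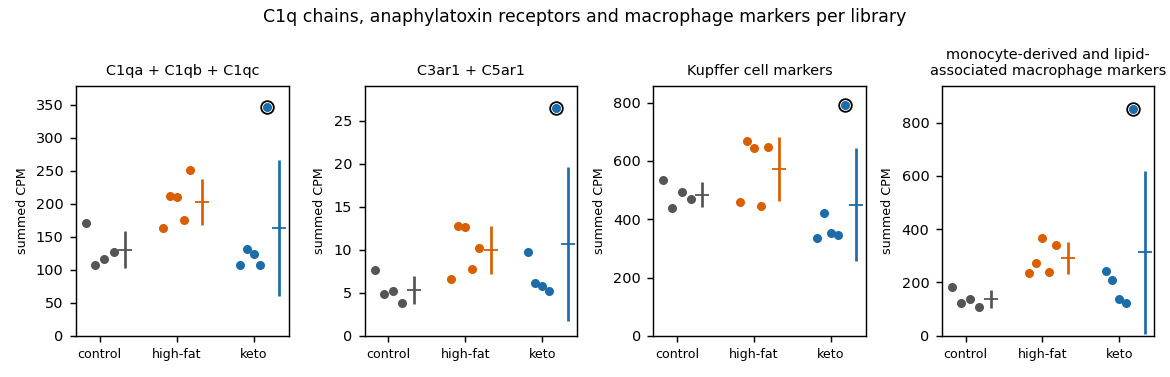
Summed level in CPM (y axes, from 0) of the 3 C1q chains, of C3ar1 with C5ar1, of 9 Kupffer cell markers and of 11 monocyte-derived or lipid-associated macrophage markers in each library by diet, with mean ± SD and ketogenic replicate 5 ringed. That library is the highest point in all 4 panels, at 347 CPM for C1q.

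C1ra and C1s1 encode the proteases carried by C1q and are hepatocyte products. C1ra held 327, 355, 401 and 365 CPM in controls and 298, 188, 193, 249 and 202 CPM after the high-fat diet, with every high-fat library below the controls. It fell 1.6-fold (log2 fold change -0.68 ± 0.17, adjusted p = 0.0163), and without control replicate 4 the adjusted p was 0.0601. Ketogenic livers held 246, 273, 319, 301 and 182 CPM, all below the controls (-0.46 ± 0.17, adjusted p = 0.0896). The ketogenic change passed narrowly in DESeq2 (adjusted p = 0.0499) and without ketogenic replicate 3 (edgeR adjusted p = 0.0496). C1s1 showed no such difference, with 569 to 769 CPM in controls, 625 to 714 CPM after the high-fat and 580.3 to 643 CPM after the ketogenic diet (-0.01 ± 0.11 and -0.14 ± 0.11, adjusted p = 0.975 and 0.392). C1ra shares 48.02% of its 50-base stretches with its copy C1rb, which was at 0.118 to 1.54 CPM, and C1s1 shares 21.85% with C1s2.

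Among the regulators, which keep complement off the body's own cells, only Cd59a passed the test. It encodes a membrane-anchored inhibitor of C9 polymerisation. Cd59a held 55.1, 50.4, 48.3 and 55.4 CPM in controls and 70.6, 80.5, 71.8, 75.7 and 89.9 CPM after the high-fat diet, without overlap. The rise was 1.49-fold (log2 fold change 0.57 ± 0.12, adjusted p = 0.00706) and held under every alternative tried. Ketogenic livers held 53.0, 59.0, 80.9, 60.0 and 57.3 CPM, with replicate 3 alone at the high-fat level (0.25 ± 0.12, adjusted p = 0.199, and 0.0229 with library totals). On the high-fat diet the transcript of the pore protein C9 was lower, and that of its inhibitor higher, in all 5 libraries than in any control.

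Serping1 encodes the C1 inhibitor and Cfi encodes factor I, which inactivates C3b and C4b. Their changes were -0.42 ± 0.16 and -0.30 ± 0.14 after the high-fat diet (adjusted p = 0.0990 and 0.185) and -0.48 ± 0.16 and -0.42 ± 0.14 after the ketogenic diet (adjusted p = 0.0592 and 0.0731). DESeq2 called the high-fat change of Serping1 (adjusted p = 0.0493) and both ketogenic changes (0.0187 and 0.0269). Without control replicate 2 the ketogenic change of Serping1 was -0.55 and passed (edgeR adjusted p = 0.0468). C4bp, a cofactor of factor I, stayed between 533 and 793 CPM over all libraries with changes of -0.05 ± 0.12 and -0.06 ± 0.12. Cd55, a membrane protein that splits C3 convertases apart, was at 10.0 to 21.3 CPM with changes of 0.16 ± 0.22 and -0.19 ± 0.22.

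C3ar1 and C5ar1 encode the receptors for the anaphylatoxins C3a and C5a on myeloid cells, and were scarce. C3ar1 lay at 3.20 to 5.26 CPM in controls, 4.97 to 9.78 CPM after the high-fat diet, 3.54 to 7.17 CPM in ketogenic replicates 1 to 4 and 19.8 CPM in replicate 5. C5ar1 lay at 0.571 to 2.38, 1.68 to 3.73, 1.30 to 2.50 and 6.59 CPM in the same order. Their high-fat changes of 0.83 ± 0.46 and 1.06 ± 0.47 and ketogenic changes of 0.97 ± 0.46 and 1.07 ± 0.47 did not pass (adjusted p from 0.149 to 0.260). In a fit of the high-fat and control libraries alone the C3ar1 change was 0.82 and passed (edgeR adjusted p = 0.0291). Without ketogenic replicate 5 the ketogenic changes were 0.25 and 0.47.

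A list of 32 further complement genes, of which 27 were tested, gave 1 call on each diet, beside 12% and 12.1% of all genes. After the high-fat diet Calr, calreticulin, a chaperone of the endoplasmic reticulum that also binds C1q, fell from 798 ± 153 CPM (n = 4) to 498 ± 49.7 CPM (n = 5; log2 fold change -0.68 ± 0.18, adjusted p = 0.0211). After the ketogenic diet Cfhr2, a relative of factor H, fell from 453 ± 33.7 to 322 ± 67.9 CPM (log2 fold change -0.49 ± 0.15, adjusted p = 0.0392). The Calr call was lost without control replicate 2 or 4 or high-fat replicate 2 or 3 (adjusted p from 0.0505 to 0.0738), and the Cfhr2 call without any 1 of the 4 controls or ketogenic replicate 1, 2 or 5 (0.0519 to 0.116). None of the 27 rose on either diet. Between the ketogenic and the high-fat diet edgeR and DESeq2 each called 0 of 27, with 3 at an unadjusted p under 0.05 in edgeR, and edgeR called 2 without ketogenic replicate 5. The list's high-fat count was 3 without high-fat replicate 1, and its ketogenic count was 4 without ketogenic replicate 3 and 2 without ketogenic replicate 4.

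Genes around complement control were read in the same fit. Of 27 genes of the IL-6 and acute phase response, 6 rose and 0 fell after the high-fat diet (beside 6.95% and 5.01% of all genes) and 4 rose and 2 fell after the ketogenic diet (beside 7.47% and 4.6%), with median log2 fold changes of 0.12 and 0.15. The high-fat count was 1 without control replicate 3 or 5 or high-fat replicate 3 or 5, 2 without high-fat replicate 4 and 3 without control replicate 2. The ketogenic count of 6 was 2 without control replicate 2, 3 or 5 and 3 without ketogenic replicate 5. Among 15 regulators of complement transcription in liver 0 passed after the high-fat diet in edgeR (beside 12% of all genes), with 1 at an unadjusted p under 0.05 and 1 called by DESeq2. After the ketogenic diet 1 passed, beside 12.1% of all genes. That 1 was Cebpa, a C/EBP factor, which fell from 554 ± 16.8 to 424 ± 58.3 CPM (-0.38 ± 0.12, adjusted p = 0.0438). The Cebpa call was lost without control replicate 3, 4 or 5 or ketogenic replicate 1, 2 or 5, which left 0 of the 15. Hnf4a, the HNF4 gene, was at 859 ± 179.9 CPM in controls, 588 ± 58.9 CPM after the high-fat and 610 ± 120.1 CPM after the ketogenic diet (adjusted p = 0.0506 and 0.0748).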

How the data were processed

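Per the labels' protocols, poly(A) RNA of whole liver was sequenced with a strand-keeping kit. The authors deposited whole-number read counts per Ensembl gene for 56980 IDs, 1 column per library. The build GRCm39 and the tools STAR 2.7.9a, featureCounts 1.6, cutadapt 1.16 and DESeq2 1.36.0 are named, without roles, in the submitters' processing notes. Not given in the sources used here are the annotation release, the strand setting and the handling of reads that genes share. Symbols came from GENCODE M21 and other mouse gene tables and matched 91.39% of IDs. Exon lengths, overlaps and shared 50-base stretches came from GENCODE M21 on GRCm38, and promoters from RefSeq on GRCm38.p6.

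The members and lists were chosen with earlier results of these data known. Every member is accounted for, with values per library for those that passed in a comparison and for C3, C4b, Hc, C9, Cfb, Cfd and the C1q genes. Genes were kept by filterByExpr with a minimum count of 10 per library, in about the smallest diet's number of libraries, and 15 in total. Counts were scaled with TMM (factors 0.886 to 1.215) and were tested two-sided in edgeR 4.0.16 (R 4.3.3) with estimateDisp, robust glmQLFit and glmQLFTest. SE is the absolute log2 fold change divided by the square root of F. The biological coefficient of variation was 0.25, and the test was tried on simulated counts. No pair of libraries was identical (Spearman 0.934 to 0.990 over 91 pairs). Alternatives were library totals, DESeq2 1.42.0 (size factors and Wald test), no filter and a stricter filter, the replicate number or library number as a term, 2-diet fits, control replicate 1 put back, and each library left out.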

Additional observations from a re-analysis of the deposited data

Results flagged for a closer look

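Libraries that lay far from the rest of their diet were looked for with Dixon's test in 96 groups of 4 or 5 libraries, 32 members in 3 diets, where chance flags about 1 in 20 groups. It singled out 10.

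Of these, 7 were ketogenic replicate 5, as the highest library of its diet. It held 103 CPM of C1qa, 124 CPM of C1qb, 119.6 CPM of C1qc, 41.4 CPM of Cfp, 19.8 CPM of C3ar1, 6.59 CPM of C5ar1 and 14.6 CPM of Cd55. The first 6 of these genes are known products of macrophages or other myeloid cells, and the same library had the highest sums of Kupffer cell markers (791 CPM) and of monocyte-derived and lipid-associated macrophage markers (851 CPM). The part of those markers in the values was not tested. Its Cd55 level lay within the control range of 10.9 to 14.7 CPM. Fcna, also a macrophage product, went the other way and was not flagged. It was at 13.9 CPM in ketogenic replicate 5, the lowest of all 14 libraries.

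High-fat replicate 5 was the highest of its diet for C1qb at 96.1 CPM. Control replicate 4 was the highest control for Cfi at 925 CPM, and ketogenic replicate 3 was the highest of its diet for Cd59a at 80.9 CPM.

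In control replicate 1, which was kept out of every comparison, 12 pancreatic acinar markers summed to 15520 CPM, against 25.9 to 171 CPM in control replicates 3 to 5 and 1696 CPM in control replicate 2. Its Cd59a level of 57.9 CPM and its Colec10 level of 33.2 CPM were above every other control. Many members lay below every other control, among them all that fell after the high-fat diet. It held 390 CPM of C9, 242 of C6, 74.1 of C2, 61.2 of C4a and 301 of C1ra. All of these but C1ra lay within the range of the high-fat libraries. Cfb, at 147 CPM, was also below every other control, while Mbl2, Cfd and Colec11 lay within the control range. The part of the contamination in these values was not tested.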

How the results depend on the processing

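Over the fold changes of the members, Calr and Cfhr2 in all settings, 1608 of 1764 values kept their direction and side of the threshold. Of the rest, 71 calls were lost, 38 were gained, 47 uncalled values changed sign and 0 called values reversed. C9 on both diets, Mbl2 and Cfd after the ketogenic diet, and Colec11, Cd59a and C2 after the high-fat diet kept their calls under every setting run. For high-fat against control, DESeq2's Wald test called 11 members and the 2-diet fit 14 in place of 7. Further complement genes called, 1 in the fit used, were 3 with library totals, 3 with DESeq2, 0 with the replicate block and 7 in the 2-diet fit. For ketogenic against control, members called were 9 with DESeq2, 3 with no filter and 3 with library number as a covariate, in place of 5. Further complement genes were 2 with library totals, 4 with DESeq2, 3 with control replicate 1 put back, and 0 with no filter, the replicate block, library number or the 2-diet fit. For ketogenic against high-fat, all genes called, 9 in the fit used, were 15 with library totals, 173 with DESeq2, 26 with no filter, 15 with the block, 3 with library number and 1 in the 2-diet fit. Mbl2 was not called there with the block, library number or the 2-diet fit, which leaves 0 members.

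Leaving out each library in turn gave 934 to 2145 genes and 4 to 8 members for high-fat against control, 1056 to 2201 genes and 3 to 8 members for ketogenic against control, and 1 to 315 genes and 0 to 4 members for ketogenic against high-fat. Further complement genes ranged from 0 to 3, 0 to 4 and 0 to 2. The highest counts between the fat-rich diets came without ketogenic replicate 5. The cause of these shifts was not tested.

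For libraries with the same replicate number in different diets, the correlation of their deviations was over 0.1 in 3 of 13 pairs, with a median of 0. For libraries with other numbers it was over 0.1 in 13 of 52 pairs, with a median of 0.0135. The numbers thus gave no sign of pairing the samples, which so few pairs cannot exclude. With the replicate number as a block, 10 members were called for high-fat against control, 6 for ketogenic against control and 0 for ketogenic against high-fat. The block ended the ketogenic call of Cfb (adjusted p = 0.0590) and gave C8a a high-fat call (-0.92, adjusted p = 0.0358). With 4 or 5 libraries per diet and a wide spread in C8b, C4a and C6, high-fat falls of 2.79-fold, 2.59-fold and 1.88-fold sat close to the threshold.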
